A study of Mus musculus with 6 samples.

Results

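Spinal muscular atrophy (SMA) is a motor neuron disease caused by too little SMN, a protein that helps to assemble spliceosomal snRNPs and takes part in the handling of mRNA in axons. A small set of genes has been linked to SMN from outside that assembly pathway, either because a changed dose alters the severity of SMA in patients or animal models, or because their protein or mRNA is bound or altered when SMN is short. The levels of 10 such genes, Pls3, Nrn1, Ncald, Coro1c, Chodl, Tmem41b, Uba1, Pfn2, Rock2 and Ighmbp2, were read from the RNA-Seq comparison of motor neurons (MNs) derived from control and SMA mouse embryonic stem cells (mESCs). They are a list of gene names, with no value in the rule, although earlier results of these data were known when the list was made, and all 10 were found, with 1 entry each, among the 41945 entries of the gene-level table.

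The control MNs came from the Hb9 line, labelled wildtype, and the SMA MNs from the A2 line, labelled SMN2+/+;mSmn-/-, with 3 samples for each line on an FVB/N background. Per the study's methods both lines carry the human SMN2 transgene and an eGFP reporter under control of the Hb9 promoter, so that the lines differ by the loss of mouse Smn. Embryoid bodies were treated with 1 µM retinoic acid and 1 µM Smoothened agonist for 5 days, and GFP-positive cells were collected by FACS. Each genotype is represented by a single mESC line, so genotype and line cannot be told apart. No animals were sampled.

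Expression is given in FPKM, the number of fragments scaled to the length of the exons and to the fragments mapped, which can be compared between genes because it is corrected for length. The authors' table holds 1 FPKM value per genotype, in which the 3 samples are combined. No SD, n or test therefore stands beside a value, the table does not give the number of reads behind a value, and every difference below compares these pooled values without a replicate check. Log2 ratios are of SMA over control values, with no pseudocount added. They are set beside the 15548 entries that carry a gene symbol, reach 1 FPKM in one or the other genotype and are above 0 FPKM in each, called all genes here. All genes had a median of -0.30, with quartiles of -0.91 and 0.19, and scaling to that median would add 0.30 to every log2 ratio.

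Smn1, the targeted gene, was at 137 FPKM in the control and 5.26 FPKM in the SMA MNs. The labelled cell type was checked against MN markers. Mnx1, which encodes Hb9, had 41.2 and 44.2 FPKM in the order control and SMA, whereas Lhx3 had 27.6 and 0.348 FPKM and Chat, the enzyme that makes acetylcholine, 15.5 and 0.344 FPKM. Of 8 MN markers that reached 1 FPKM, 7 were at least 2-fold lower in A2 SMA MNs. All 9 MN markers that were matched summed to 601 FPKM in the control and 79.1 FPKM in the SMA MNs. Slc5a7, the choline transporter, stayed under 1 FPKM in both genotypes, at 0.387 and 0.0900 FPKM, and Slc18a3 was not matched. All 8 pluripotent cell markers were at least 2-fold higher, from a sum of 278 FPKM to 1821 FPKM, led by Pou5f1 with 98.3 and 775 FPKM. The 8 feeder fibroblast markers summed to 68.8 and 35.6 FPKM, and none of these 8 was at 0. Fewer cells of a type and less RNA per cell cannot be told apart in bulk samples, and the part of these marker shifts in the differences below was not tested.

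The 10 genes divided into a group of 4 that were at least 2-fold lower in A2 SMA MNs and a group of 6 that stayed within 2-fold. The lower group was Pfn2, Ncald, Nrn1 and Chodl, with log2 ratios from -3.07 to -2.31. The other group was Coro1c, Tmem41b, Pls3, Uba1, Rock2 and Ighmbp2, with log2 ratios from -0.73 to 0.06, and none of the 10 was at least 2-fold higher. Over all genes 22.7% were at least 2-fold lower and 6.93% at least 2-fold higher, and 66.0% were below a log2 ratio of 0, as were 9 of the 10 genes. The 4 lower genes also passed a limit of 4-fold, which 9.04% of all genes passed in that direction. Chodl is under 1 FPKM and so is not among all genes. On that basis 3 of 9 were at least 2-fold lower, all 3 also 4-fold lower, and 8 of 9 were below 0. A limit of 1.5-fold, passed downward by 35.8% of all genes, added Coro1c. The median over the 10 genes was -0.59, and -0.45 over the 9 that reached 1 FPKM.

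**Figure D1:**
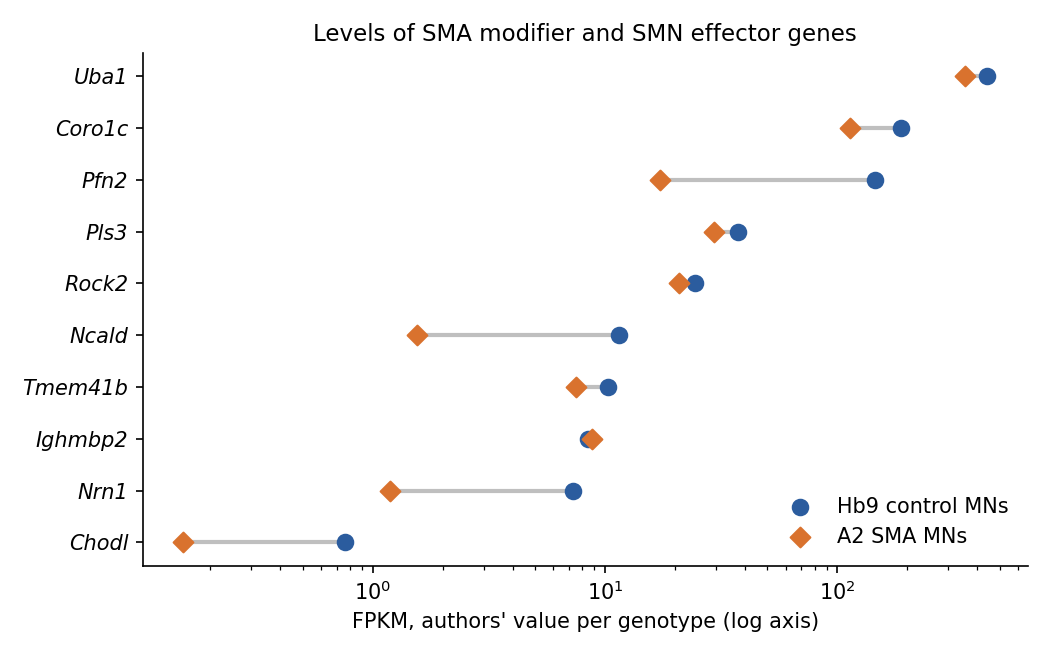
FPKM on a log axis for each of the 10 genes, with the authors' pooled value for Hb9 control MNs as a circle and for A2 SMA MNs as a diamond, joined by a line. Pfn2, Ncald, Nrn1 and Chodl have long lines to the left, and the other 6 genes have their symbols close together, with Ighmbp2 at 8.46 and 8.79 FPKM.

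Levels spanned a wide range within each genotype. In Hb9 control MNs the order from the top was Uba1, Coro1c, Pfn2, Pls3, Rock2, Ncald, Tmem41b, Ighmbp2, Nrn1 and Chodl, and in A2 SMA MNs it was Uba1, Coro1c, Pls3, Rock2, Pfn2, Ighmbp2, Tmem41b, Ncald, Nrn1 and Chodl. Pfn2 went from the third place to the fifth, and Ncald from the sixth to the eighth. Without a spread over samples it cannot be said which neighbours in these orders differ. Uba1 alone made up 50.6% of the summed FPKM of the 10 genes in Hb9 control MNs and 63.9% in A2 SMA MNs.

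Among the genes that act on actin, Pfn2 showed the lowest log2 ratio. It encodes profilin 2, the profilin most typical of neurons, which delivers actin monomers to growing filaments, binds SMN and is a substrate of ROCK. In NCBI m37, the build of all positions here unless another is named, Pfn2 spans 57645817 to 57651486 of chromosome 3, and it was at 145 FPKM in the control and 17.3 FPKM in the SMA MNs. The log2 ratio of -3.07 is an 8.38-fold difference, and 4.05% of all genes had a lower ratio. Its level was above 95.2% of all genes in control MNs and above 58.2% in SMA MNs.

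Rock2, a kinase that acts below the GTPase RhoA and raises actomyosin contraction, had 24.4 FPKM in the control and 20.8 FPKM in the SMA MNs. Its log2 ratio was -0.23, above the median of all genes, and it became positive (0.07 relative to the median gene, and at most 0.13) when FPKM were rescaled to the median gene or the upper quartile. The gene lies on chromosome 12 from 16901784 to 16995127.

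Pls3 and Coro1c are partners in the actin and endocytosis branch of the SMA modifiers. Pls3 encodes plastin 3, an actin-bundling protein reported as a protective modifier in families with discordant siblings, and Coro1c encodes a coronin that binds filamentous actin and plastin 3. Pls3, on chromosome X from 73030993 to 73120521, had 37.3 FPKM in control MNs and 29.4 FPKM in SMA MNs. Its log2 ratio of -0.35 lay beside the median of all genes, and became 0.0080 with upper quartile scaling. Cuffdiff gave Pls3 the status FAIL, meaning that its own comparison was not completed, and it was the only one of the 10 with that status. Coro1c, on chromosome 5 from 114292445 to 114358767, had 187 and 113 FPKM, a log2 ratio of -0.73. The overlapping entry Gm17122 had 83.9 and 47.6 FPKM, a log2 ratio of -0.82, and no strand-marking step is stated, in which case reads of overlapping genes could not be told apart.

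Ncald encodes neurocalcin delta, a calcium sensor of neurons that restrains endocytosis, and whose reduction has been reported as protective in SMA. It was at 11.5 FPKM in the control and 1.56 FPKM in the SMA MNs. The log2 ratio was -2.89, a 7.40-fold difference, and -2.29 with a pseudocount of 1 FPKM. Its entry, on chromosome 15 from 37295930 to 37722325, also holds the symbol Gm15941, so that the value is that of both.

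Nrn1 and Chodl are linked to motor axons. Nrn1 encodes neuritin, a GPI-anchored protein that promotes neurite growth and whose mRNA is bound by HuD together with SMN. It lies on chromosome 13 from 36817494 to 36826346 and had 7.28 and 1.19 FPKM in control and SMA MNs, a log2 ratio of -2.62 or a 6.14-fold difference, which was -1.92 on the log2 scale with a pseudocount of 1 FPKM. Chodl encodes chondrolectin, a C-type lectin found in fast MNs. Located on chromosome 16 from 78931193 to 78951978, it was the least abundant of the 10, at 0.760 FPKM in control MNs and 0.153 FPKM in SMA MNs. Its log2 ratio was -2.31, but both levels were under 1 FPKM, and with a pseudocount of 1 FPKM the ratio was -0.61 and within 2-fold.

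Uba1 encodes the E1 enzyme that starts ubiquitin conjugation, and mutations of its human ortholog cause an X-linked form of infantile SMA. It was the most abundant of the 10 genes, above 99.5% of all genes in Hb9 control MNs and 99.3% in A2 SMA MNs, at 442 and 354 FPKM. The log2 ratio was -0.32, next to the median of all genes, and became 0.03 with upper quartile scaling. Uba1 lies on chromosome X from 20235452 to 20260305. Its Y-linked copy, listed as Ube1y1, had 0.258 and 0.708 FPKM.

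Tmem41b, also named stasimon, encodes a membrane protein of the endoplasmic reticulum, and its gene holds a minor (U12-type) intron, a class of intron whose splicing is sensitive to SMN. It had 10.3 FPKM in the control and 7.54 FPKM in the SMA MNs, with a log2 ratio of -0.45. The gene-level value does not show how that intron was spliced. Tmem41b lies on chromosome 7 from 117115701 to 117130443.

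Ighmbp2 encodes a helicase whose loss causes spinal muscular atrophy with respiratory distress, a separate MN disease. It was the only one of the 10 genes that was higher in A2 SMA MNs on the scale as deposited, with 8.46 and 8.79 FPKM and a log2 ratio of 0.06. It lies on chromosome 19 from 3260924 to 3292837 and overlaps Mrpl21, which had 8.87 and 12.1 FPKM.

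**Figure D2:**
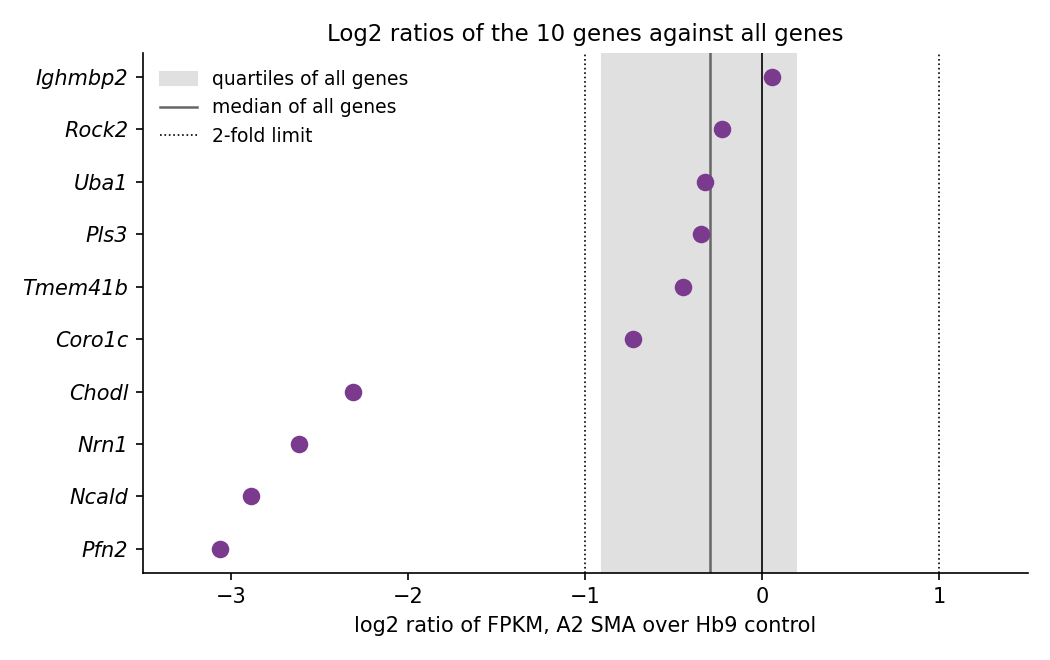
Log2 ratio of FPKM, A2 SMA over Hb9 control MNs, for each of the 10 genes, with the median (grey line, -0.30) and quartiles (grey band, -0.91 to 0.19) of all genes and dotted lines at the 2-fold limit. The points of 6 genes lie inside the band and those of Pfn2, Ncald, Nrn1 and Chodl lie between -3.07 and -2.31.

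The chromosomes that carry the 10 genes had medians close to that of all genes, from -0.38 on chromosome 12 to -0.21 on chromosome X. The nearest entries of at least 1 FPKM on either side of the genes were also read, an addition made after their values had been seen. Rnf13, 6469 bp from Pfn2, had a log2 ratio of -0.94 and Tsc22d2, at 567167 bp, had -0.31. Fars2 and Rreb1, at 188032 and 1043922 bp from Nrn1, had -0.17 each. D16Ertd472e (status FAIL) and Mrpl39, at 354239 and 5765842 bp from Chodl, had -0.21 and -0.04. Beside Ncald, Grhl2, only 2605 bp away, was higher at 2.44 and 5.90 FPKM (log2 ratio 1.27) and Rrm2b was lower at 6.54 and 2.86 FPKM (log2 ratio -1.19). Among the genes that stayed within 2-fold, Tmem41b and Rock2 had neighbours with a lower log2 ratio than their own, namely Dennd5a at -1.12 and E2f6 at -1.19. The 4 lower genes are near the low end of all genes, so their neighbours were not compared with them.

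To show the regulatory sequence just ahead of genes with large and small differences, the 100 bases before the RefSeq start site (GRCm38.p6, a later build than that of the table) are given for Pfn2 and Chodl from the lower group and for Rock2 and Ighmbp2, which had the highest ratios. The RefSeq table held 8 of the 10 genes, without Nrn1 and Ncald. Capitals mark the motifs searched on both strands, which were the GC box GGGCGG, the TATA box TATAAA and the E-box CANNTG. The windows are chr3:57847758-57847857 on the minus strand for Pfn2, chr16:78930848-78930947 on the plus strand for Chodl, chr12:16894878-16894977 on the plus strand for Rock2 and chr19:3283011-3283110 on the minus strand for Ighmbp2.
Pfn2: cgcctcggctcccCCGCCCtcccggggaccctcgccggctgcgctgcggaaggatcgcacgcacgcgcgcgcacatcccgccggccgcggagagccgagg
Chodl: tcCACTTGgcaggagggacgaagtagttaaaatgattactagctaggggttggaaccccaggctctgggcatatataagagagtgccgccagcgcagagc
Rock2: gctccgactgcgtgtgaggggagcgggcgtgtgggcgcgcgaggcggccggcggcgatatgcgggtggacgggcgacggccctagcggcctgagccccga
Ighmbp2: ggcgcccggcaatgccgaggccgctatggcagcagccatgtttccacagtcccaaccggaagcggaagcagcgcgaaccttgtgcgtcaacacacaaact
The Pfn2 window held a GC box and 19 CG dinucleotides with 81% G or C, and that of Chodl held an E-box and 3 CG dinucleotides with 53% G or C. Over 32851 windows of the same length, 24.7% held a GC box, 5.56% a TATA box and 34.4% an E-box, and the median was 3 CG dinucleotides and 55% G or C. Only the letters TATAAA counted as a TATA box, so variants such as tatataag in the Chodl window were neither marked nor counted. Rock2 (17 CG dinucleotides) and Ighmbp2 (9) held none of the 3 motifs. The windows of the other 4 genes within 2-fold did hold motifs, with a GC box for Coro1c (20 CG dinucleotides), a GC box and an E-box for Tmem41b, and, in at least 1 of their several windows, a GC box and an E-box for Pls3 and an E-box for Uba1. Of the lower group only Pfn2 and Chodl had a window, and Pls3 and Uba1 had several, so these matches cannot show whether motifs separate the groups. The Pfn2 window held more CG dinucleotides than 98.7% of all windows, whereas Chodl was at their median. A match of letters is not a binding site.

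The closest relatives of the 10 genes place them within their families. Of 29 relatives, 26 reached 1 FPKM in either genotype, and 4 of these share their entry with other symbols. Of the 26, 5 were at least 2-fold lower in A2 SMA MNs, 2 were at least 2-fold higher and 19 were within 2-fold, with a median log2 ratio of -0.34. Over all genes, 22.7% were at least 2-fold lower and 6.93% at least 2-fold higher, and these shares also stand beside the lists below. The lowest ratios were those of the calcium sensors Hpca, the gene of hippocalcin, at 38.2 and 5.25 FPKM (log2 ratio -2.86), and Ncs1 at 31.4 and 8.77 FPKM (-1.84). The most abundant calcium sensor, Hpcal1, had 117 and 34.2 FPKM (-1.77), whereas Hpcal4 and Vsnl1 were under 1 FPKM in both genotypes, Hpcal4 with the higher value in SMA MNs (0.396 and 0.849 FPKM). Over Ncald and 5 relatives of its family the summed level went from 199 to 50.8 FPKM.

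Profilins and plastins had sums that differed less than that of the calcium sensors. Pfn1, the widely expressed profilin, had 811 FPKM in the control and 835 FPKM in the SMA MNs. The share of Pfn2 in the sum of Pfn1 and Pfn2 was 15.1% in control MNs and 2.02% in SMA MNs. The scarce profilins Pfn3 (0 and 0.155 FPKM) and Pfn4 (2.15 and 1.52 FPKM) were not part of that sum. The 3 plastins summed to 40.8 FPKM in both genotypes, but the share of Pls3 was 91.4% in control MNs and 72.0% in SMA MNs. Pls1, a plastin of epithelia, had 2.77 and 8.29 FPKM (log2 ratio 1.58) and Lcp1, the plastin of blood cells, had 0.724 and 3.13 FPKM (2.11).

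Coro1c made up 43.8% of the type I coronins in Hb9 control MNs and 31.9% in A2 SMA MNs, beside Coro1b at 221 and 235 FPKM. Rock2 and Rock1 were near equal in both genotypes, with a share of Rock2 of 50.4% and 48.5%. Uba1 held 95.1% and 94.4% of its sum with Uba6, the other E1 enzyme for ubiquitin. No share is given for Nrn1, because the entry of its relative Nrn1l also holds Edc4, a gene of another family. Uba2, the E1 subunit for SUMO, was the second most abundant of the 26 relatives and had 288 and 403 FPKM (log2 ratio 0.48).

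**Figure D3:**
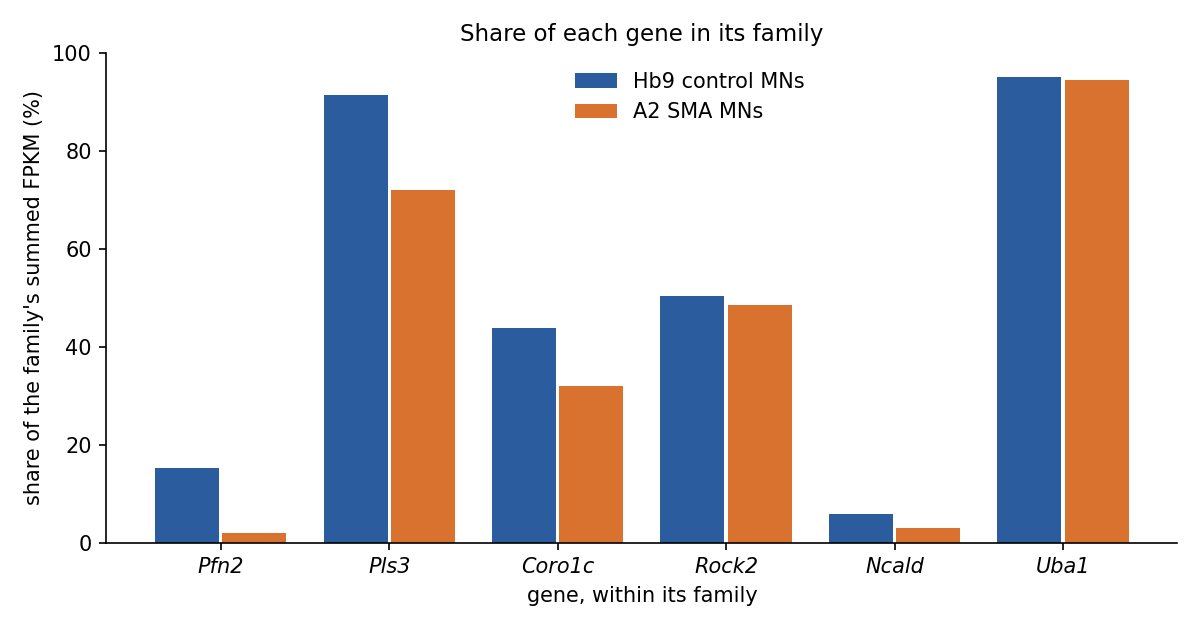
Share of the summed FPKM of its family (in percent, with Pfn3 and Pfn4 left out of the profilins) held by Pfn2, Pls3, Coro1c, Rock2, Ncald and Uba1, as bars from 0 for Hb9 control MNs and A2 SMA MNs. The bar of Pfn2 (15.1% and 2.02%) shrinks most in proportion, and those of Rock2 and Uba1 are nearly level.

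Actin dynamics and RhoA signalling, in which Pfn2, Rock2, Pls3 and Coro1c act, was described by 33 further genes, 32 of them at 1 FPKM or more. In A2 SMA MNs 3 of these were at least 2-fold lower, 1 was at least 2-fold higher and 28 were within 2-fold. Relative to the median gene, 2 were at least 2-fold lower and 2 at least 2-fold higher. Their median log2 ratio was -0.21, close to that of all genes. The lowest were Tmsb4x, which sequesters actin monomers, at 833 and 238 FPKM (log2 ratio -1.81, status FAIL), and Cfl2, a cofilin that severs filaments, at 71.7 and 27.6 FPKM (-1.38). The highest were the formins Diaph1, at 41.4 and 85.2 FPKM (1.04), and Diaph3, at 12.4 and 23.8 FPKM (0.94). Actb was the most abundant, at 907 and 1231 FPKM, with a log2 ratio of 0.44. Actins, thymosins and ubiquitin genes have near-identical copies, so that their values are uncertain.

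Clathrin-mediated endocytosis, on which Ncald, Pls3 and Coro1c act, was covered by 29 genes with a median log2 ratio of -0.35. Of these, 5 were at least 2-fold lower (3 relative to the median gene), 1 was at least 2-fold higher and 23 were within 2-fold. The coat genes Cltc (282 and 273 FPKM, status FAIL) and Clta (239 and 246 FPKM) were the most abundant and differed little. The lowest ratios were those of Dnm3, a dynamin, at 2.32 and 0.330 FPKM (-2.81), and Snap91, a clathrin assembly protein of synapses, at 14.5 and 3.12 FPKM (-2.22). Sh3gl2, the gene of endophilin A1, was highest at 3.63 and 7.98 FPKM (1.14), followed by Amph at 8.61 and 10.2 FPKM (0.24, status FAIL).

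Ubiquitin conjugation, which Uba1 starts, was covered by 23 genes with a median log2 ratio of -0.34. Of these, 2 were at least 2-fold lower and 21 within 2-fold. The lower ones were Ubb, a polyubiquitin gene, at 10.4 and 2.50 FPKM (-2.05), and Ube2d1, an E2 enzyme, at 59.4 and 21.4 FPKM (-1.47). Ctnnb1, whose protein is degraded through ubiquitin, had 1540 and 1603 FPKM and Cul3, a ubiquitin ligase scaffold, 204 and 213 FPKM. Ube2a (0.70) and Ube2s (0.64) had the highest log2 ratios.

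Another 10 genes linked to SMN had a median log2 ratio of -0.72, with 4 at least 2-fold lower and 6 within 2-fold. The share of all genes at least 2-fold lower was 22.7%. Gap43, a growth cone protein whose mRNA is bound by HuD and SMN, had 241 and 11.9 FPKM (-4.34), and Elavl4, which encodes HuD itself, had 199 and 11.3 FPKM (-4.14). Agrn, which organises the neuromuscular junction, had 198 and 110 FPKM (-0.85). Zpr1, which encodes a zinc finger protein that binds SMN, had 68.1 and 84.3 FPKM (0.31), and Hnrnpr, which encodes an RNA-binding partner of SMN, had 94.3 and 73.6 FPKM (-0.36).

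**Figure D4:**
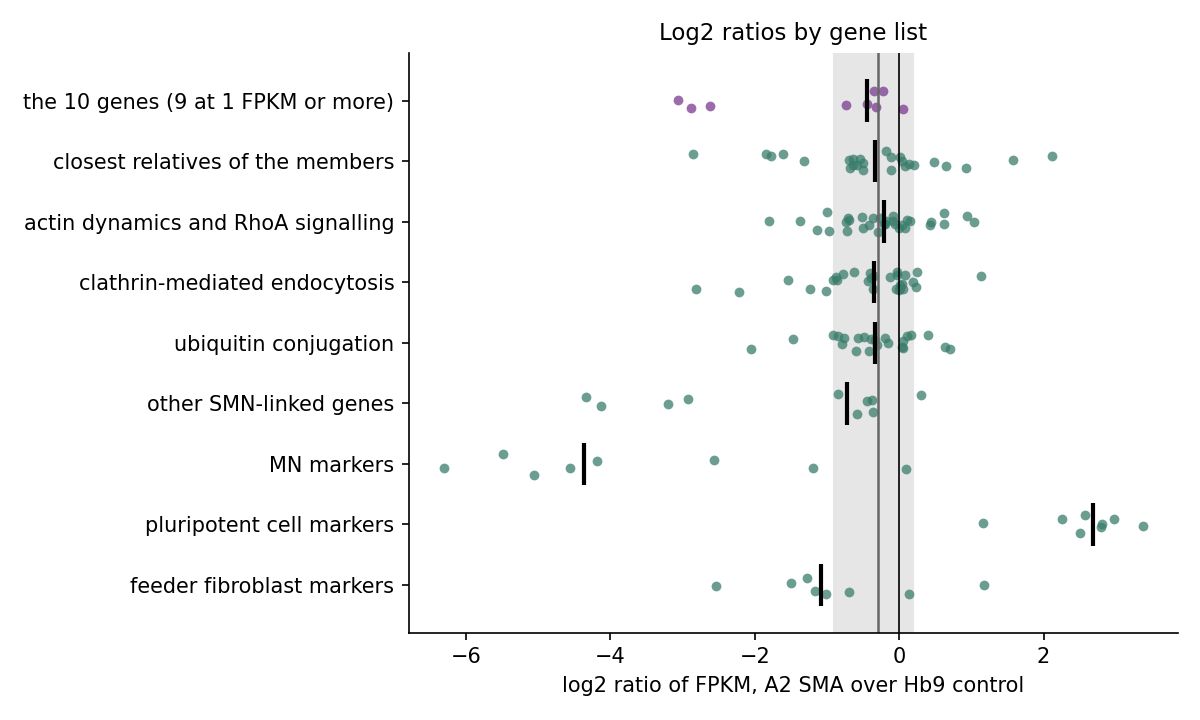
Log2 ratio of FPKM, A2 SMA over Hb9 control MNs, with 1 point per gene of at least 1 FPKM in either genotype in each list, a black bar at the list's median, and the median and quartiles of all genes as a grey line and band. The medians of the actin, endocytosis and ubiquitin lists lie inside the band at -0.21 to -0.35, and those of the MN, feeder fibroblast and pluripotent cell markers lie outside it at -4.37, -1.09 and 2.69.

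The genes nearest to the extremes of the set were found by the distance between their pairs of log2 FPKM values, over the 2 genotypes. For Pfn2, which had the lowest ratio, these were Meis1 at 138 and 18.2 FPKM (distance 0.10 on the log2 scale), Mtap1b at 150 and 19.8 FPKM (0.20) and the entry of Gal3st4 and Gpc2 at 153 and 20.4 FPKM (0.26). Mtap1b (status FAIL) is an older symbol of Map1b, which is among the SMN-linked genes above that were at least 2-fold lower. For Ighmbp2, which had the highest, they were Sec61b (distance 0.02), Gm9266 (0.02) and Pex11a (0.03), all at 8 to 9 FPKM in both genotypes. With a pair of values per gene, such likeness describes only level and ratio.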

How the data were processed

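RNA was sequenced from 3 samples each of FACS-purified Hb9 control and A2 SMA MNs. Per the study's methods and the submitters' processing notes, reads were checked with FastQC 0.10.1, trimmed with CutAdapt, mapped to NCBI m37 with its Ensembl annotation by TopHat (version given as 2.04), assembled with Cufflinks and compared with Cuffdiff. The FPKM values deposited by the authors combine the samples of a genotype. The table's columns of fold changes, test statistics, p-values, q-values and significance hold the authors' own comparison and were not used. The status column served only to mark entries with FAIL, which were 14.0% of all genes.

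The table was analysed in Python 3.11.15 using numpy 2.4.6 and pandas 2.3.3, and plots were drawn with matplotlib 3.10.9. The entry with the highest FPKM was taken for each symbol, and 6 of the listed genes were matched through an older symbol. Table starts were read as counting from 0 and raised by 1. Of 24782 entries set against RefSeq gene lengths of the later build, 3316 matched under that reading, 284 matched with starts from 1 and the rest matched neither. A gene was counted as lower or higher at a 2-fold ratio. The calculation was tested on simulated data. No p, SE or SD was formed, and no counting error is given, since the table does not give the reads behind a value. The study's methods and results state library totals, which are not repeated here. All members, the 2 most abundant, 2 highest and 2 lowest genes of each list, and the nearest 3 genes of the 2 extreme members were to be named, and others are given where the text says so or as members of a family or marker list. For the marker lists this naming was done only in part, and no feeder fibroblast gene is named. The members and lists were chosen with earlier results of these data known. Scaling, pseudocounts, entries and filters were varied. A gene of the list of SMN-linked genes is not reported here and was left out of that list.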

Additional observations from a re-analysis of the deposited data

How the results depend on the processing

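No paired analysis was possible because the table holds 1 pooled value per genotype, and for the same reason no sample could be left out. The count of members at least 2-fold lower was 3 to 5 over the 11 alternatives, and 0 members were at least 2-fold higher in each of them. The lower count was 3 with a pseudocount of 1 FPKM or a minimum of 1 FPKM in both genotypes, which concern Chodl, and without the shared Ncald entry, and 5 with a limit of 1.5-fold, which added Coro1c (35.8% of all genes were lower by that limit). The median log2 ratio of the members was -0.73 to -0.23. A shift by the median gene adds 0.30 to each log2 ratio, upper quartile scaling adds 0.35, and scaling to Gusb, Pgk1 and Rpl13a adds 0.14. The signs of Rock2, Uba1 and Pls3 turn within these shifts, and those of Pfn2, Ncald, Nrn1, Chodl, Coro1c, Tmem41b and Ighmbp2 do not. With a pseudocount of 1 FPKM, the log2 ratios of Ncald, Nrn1 and Chodl moved by over 1.5-fold, to -2.29, -1.92 and -0.61, by the arithmetic of adding a constant to low values. Summing the entries of a symbol changed nothing, since each member has 1 entry. Without replicate values, no alternative shows how far the differences exceed the spread between samples.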
